A study of Mus musculus with 17 samples.

Results

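The 9 mouse mammary tumours described here carry deletions of Rb1 and Trp53 by their labels, and they were compared with 5 samples of normal mammary tissue. Together they make 14 of the 17 samples of the series, and they were chosen by their labels alone: titles that open with MMTV-Cre:Rbp53 or Ad-Cre:Rbp53 with a source not given as p53 deleted, and titles of Rbp53 normal mammary tissue. All mice had a mixed strain background. In 7 tumours the Cre recombinase that cuts out the target exons was driven by MMTV, the mouse mammary tumour virus promoter, which is active mainly in mammary epithelium. Of these, tumour 1 came from a nulliparous mouse, tumour 2 from a parous mouse, and tumours 3 to 7 are labelled Transplant. Tumours 8 and 9 are labelled Ad-CMVcre, an adenovirus that carries Cre, and Transplant. The sources used here do not give the host strain of the transplants, the ages of the mice or the parity of the mice that gave normal tissue. They also do not say if the normal samples are from separate animals, so the spread behind each p-value is only that between samples. The other 3 arrays, from tumours whose source is p53 deleted, entered the fit only to estimate the spread between arrays, and the title of 1 of them (p53 replicate 3) names the Rbp53 model, against its source. Without it 5700 genes were called for the 9 tumours in place of 5503.

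Rb1 encodes the retinoblastoma protein, which binds E2F transcription factors and holds back the genes of DNA replication, while p53 stops or kills cells with damaged DNA. Genes of the later part of the cell cycle, from chromosome condensation to cell division, are controlled mainly through another promoter element, the cell cycle genes homology region (CHR), which is bound by complexes that hold the Rb relatives p107 and p130 in resting cells. The normal mouse mammary gland is a branched duct system of luminal and myoepithelial cells set in a pad of fat with nerves, vessels and, at its edge, muscle of the body wall.

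RNA was read on Affymetrix whole-transcript arrays, 1 array for each sample, and precision depends on how many arrays each group has. A level is a log2 signal, and a difference is the mean level of the 9 tumours minus that of the 5 normal samples, with its standard error after the ± sign, so that a difference of 1 is a 2-fold change. A gene was called higher or lower where limma's moderated test, adjusted by Benjamini and Hochberg over all 19938 genes, fell below 0.05. Genes written of as having risen or fallen passed this test, and they also passed it in each of the 23 other settings that tested them, which include leaving out each array in turn, unless the text says otherwise. Asking also for a difference of at least 1 was a further setting, applied to counts over all genes and not to single genes. Levels below 6.37 are not shown to be above background: that is the smallest of the 17 arrays' 25th percentiles over their probe sets.

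The first principal component, with 54.2% of the variance of the 14 arrays, separated all tumours from all normal samples. The second component held 10.1%, and there tumour 2, the parous one, stood apart at -60.4, while the other arrays lay between -21.3 and 19.6. Among the p53 arrays used for the spread, replicate 2 did not exceed every normal sample in Timp1, Gprc5a, Acpp and Fhl2. These belong to the 12 genes with the widest gaps above normal tissue described below, and in the other 8 all 3 p53 arrays did. Leaving out p53 replicate 2 alone was not among the settings. Without the 3 p53 arrays 6771 genes were called in place of 5503.

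Rb1 itself was lower in the tumours. It read 9.29, 9.43 and 9.92 as the lowest, median and highest of the 9 tumours, and 10.93, 10.97, 11.19, 11.48 and 11.50 in normal tissue. All 9 tumours lay below all 5 normal samples, and the difference was -1.67 ± 0.16 (limma adjusted p = 7.74e-07). Every tumour also lay below every normal sample in 8.31% of all genes, so this position alone does not test the deletion. The part of cell content in this difference was not tested. Tumours 1 and 2 were at 9.35 and 9.40. Which exons were deleted is not stated in the labels, and exons that remain still give signal. Trp53 shares its probe set with another symbol and was not analysed here.

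Of the 19938 genes, 2828 were higher (14.2%) and 2675 lower (13.4%) in the tumours, and the median difference over all genes was 0.03. Each count of list members called below is to be read against these shares. In 1576 genes (7.9%) every tumour lay above every normal sample, and in 1656 (8.31%) every tumour lay below. The widest gaps on the low side included those of the fat cell genes Aqp7, Lep, Adipoq, Lgals12, Plin1 and Lpl. These 12 rises and 12 falls were picked by the width of the gap, so their values describe the choice.

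Brinp3, a secreted or membrane protein best known from nervous tissue, had the widest gap above normal tissue. It read 11.77, 12.36 and 12.71 as the lowest, median and highest tumour and 7.11, 7.66, 7.83, 7.92 and 7.96 in normal tissue, a difference of 4.55 ± 0.23. Inhba, the subunit of the growth factor activin A, was next by gap, with 10.82, 11.43 and 11.93 in tumours against 7.49 to 8.28 in normal tissue (3.64 ± 0.28). Timp1, an inhibitor of matrix metalloproteinases, read 12.43 to 13.54 against 8.81 to 10.13 (3.37 ± 0.44), and Fosl1, the AP-1 subunit Fra-1, read 9.58 to 11.61 against 7.40 to 7.65 (3.41 ± 0.42). Hmga2, a chromatin protein of embryonic and tumour cells, differed by 3.19 ± 0.50, Tnfrsf9, the co-stimulatory receptor 4-1BB of activated lymphocytes, by 3.07 ± 0.37, and Gprc5a, a retinoic acid induced membrane protein, by 2.87 ± 0.31. Fhl2, a LIM domain cofactor, had the narrowest range of the set, with all tumours within 10.19 to 11.09. Dynap, a membrane protein tied to AKT signalling, had the largest difference of the set (4.58 ± 0.70). Its tumours ranged widely, from 8.66 to 12.70, all above the normal range of 6.43 to 6.76. The granzymes Gzmc and Gzmd, proteases of cytotoxic lymphocytes, had normal levels of 5.53 to 5.88 and 4.87 to 5.15, which are not shown to be above background, so their differences of 3.67 ± 0.40 and 3.97 ± 0.63 rest on the tumour side alone. Acpp, prostatic acid phosphatase, completed the set (2.96 ± 0.46).

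On the other side Tmem45b, a membrane protein, read 6.48 to 7.26 in tumours against 12.61, 12.66, 12.98, 13.05 and 13.08 in normal tissue, a difference of -6.11 ± 0.14. Gys2, a glycogen synthase of liver and fat, ranged over 5.64 to 6.04 in tumours, all below the background level, and stood at 11.35 or more in normal tissue. Tshr, the thyrotropin receptor, which fat cells also carry, read 5.59, 5.85 and 6.56 as the lowest, median and highest tumour against 11.20 to 11.88. Lep, the fat hormone leptin, read 5.87, 6.12 and 6.76 against 11.01 to 12.21. For these genes the tumour side lay at or near background, which limits the size of the differences (-5.81, -5.56 and -5.59). Orm1, an acute phase plasma protein, differed by -5.54 ± 0.23, the fat cell lectin Lgals12 by -5.12 ± 0.17, the membrane protein Tmem182 by -4.50 ± 0.12 and Timp4, the inhibitor of metalloproteinases found in fat and vessel wall, by -5.08 ± 0.19. Timp4 and Timp1, of the same family, thus moved in opposite directions.

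**Figure D1:**
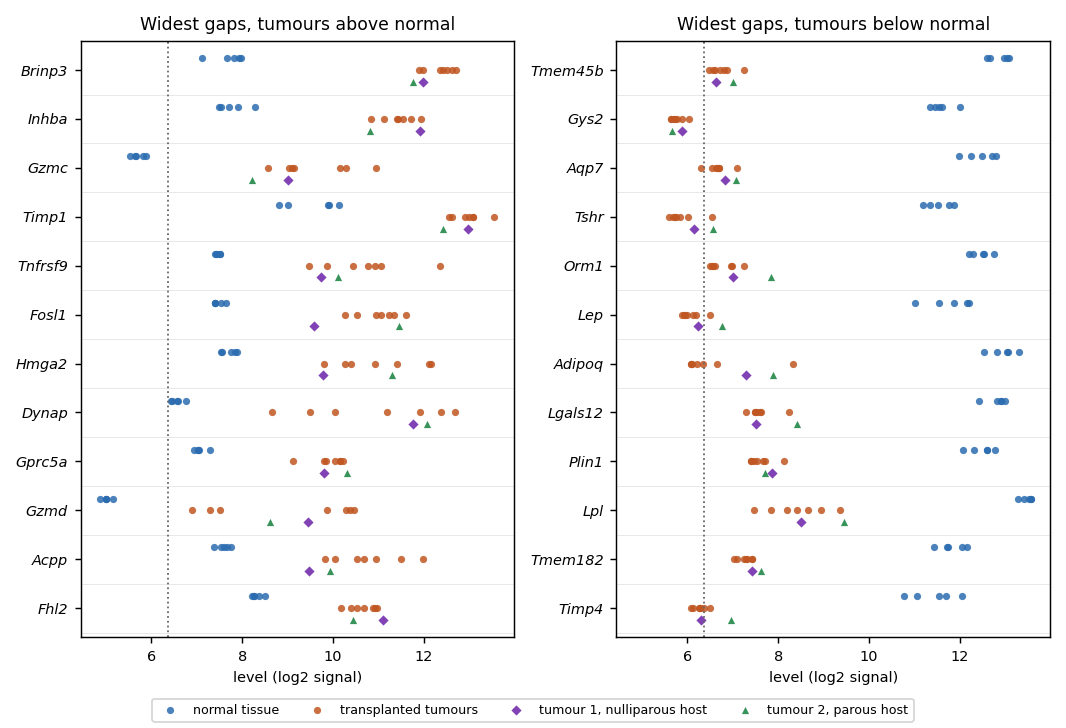
Levels on each array (log2 signal, x axis) of the 12 genes with the widest gap above and the 12 with the widest gap below normal tissue; each point is 1 array, coloured by normal tissue, transplanted tumour, tumour 1 or tumour 2, and the dotted line marks the background level of 6.37. The groups do not overlap in any of the 24 genes, which is how they were chosen, and tumours 1 and 2 lie on the side of the transplants in each.

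The 2 tumours not labelled as transplants carry the question of whether a change also occurs outside transplantation. Set against normal tissue on their own, they gave 1050 higher genes (5.27%) and 1596 lower genes (8.0%), while the 7 transplants gave 2535 higher and 2460 lower genes, 4995 in all (25.1%). Both comparisons use the same 5 normal samples. Of the changes called in the transplants, 857 of the 2535 rises (33.8%) and 1487 of the 2460 falls (60.4%) were also called in the 2 other tumours. Without tumour 1 the other comparison fell to 1431 calls and without tumour 2 to 1175, from 2646. Calls from 2 arrays have little power, so the position of both arrays was also counted: in 2009 of the 2535 rises (79.3%) both tumours lay above every normal sample, and in 2076 of the 2460 falls (84.4%) both lay below, against 20.2% and 18.7% of all genes. Among changes of at least 1 on the log2 scale in the transplants, 295 of 638 rises (46.2%) and 743 of 995 falls (74.7%) were called in the 2 others. Uggt2, a glycoprotein folding sensor, was the 1 gene called in opposite directions, at 0.74 in transplants and -1.02 in the others, with a direct difference that did not pass (adjusted p = 0.074) but did in 7 of the 23 other settings, among them array weights (adjusted p = 0.0368) and leaving out tumour 1, 4 or 9. Over all of them its adjusted p ranged from 0.0169 to 0.625.

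Set directly against each other, the transplants and the other tumours differed in 2 genes (0.01%) by limma, with 994 at an unadjusted p below 0.05. Without tumour 1 it called 137 genes and without tumour 2 it called 12. Jchain, the joining chain of antibodies made by plasma cells, was lower in the transplants by -4.17 ± 0.40 (adjusted p = 4.02e-04). It read 5.33, 5.52 and 5.74 as the lowest, median and highest transplant, all below the background level, but 8.71 and 10.66 in tumours 1 and 2 and 9.84, 10.47, 10.57, 10.73 and 11.19 in normal tissue. Tumour 2 thus lay inside the normal range. Peg10, an imprinted gene expressed from the paternal copy, was higher in the transplants by 3.12 ± 0.41 (adjusted p = 0.0124, and 0.0524 without tumour 2). Tumours 1 and 2 read 6.97 and 7.32, below the transplants at 9.37 to 10.99 and below normal tissue at 9.05 to 9.80. Its imprinted neighbour Sgce had the same order and did not pass (adjusted p = 0.116), at 8.59 and 8.61 against 10.34 to 11.76 in transplants. In 5 of the 23 other settings Sgce did pass: on the 14 arrays alone (adjusted p = 0.00144), with array weights (0.00244), without p53 replicate 3 (0.0115), with cyclic loess (0.0474) and without tumour 9 (0.0462). For Peg10 and Sgce the difference of all 9 tumours from normal tissue was 0.07 ± 0.60 and -0.74 ± 0.55, and neither passed.

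The whey acidic protein gene Wap, made in late pregnancy and lactation, was the largest difference among genes near the threshold (-4.34 ± 0.82, adjusted p = 0.124). It read 11.52 in tumour 1, 12.80 in tumour 2 and 7.35, 7.61 and 9.45 as the lowest, median and highest transplant. Normal tissue itself ranged over 7.99, 8.06, 8.39, 8.94 and 12.12, so 1 normal sample, number 4, lay level with the 2 tumours. Without that sample the direct difference of Wap passed (adjusted p = 0.00156). Against normal tissue Wap was higher in the 2 other tumours (3.06, adjusted p = 0.0264), a call lost with array weights and without tumour 1, tumour 2, normal sample 1 or normal sample 2 (adjusted p up to 0.265). The casein Csn2 fell over all 9 tumours (-3.11 ± 0.91, adjusted p = 0.0167) but not in the 2 others, where the difference was -0.86 (adjusted p = 0.725). Tumour 2 read 13.94, inside the normal range of 13.84 to 14.31, while the transplants spread over 7.62 to 13.57. Over the milk list 7 of 18 genes fell (38.9%, against 13.4% of all genes) and 0 rose. The median of the list was -1.92 in transplants and -0.71 in the others. In the 2 other tumours 3 of the list were called lower and 2 higher, Wap and the casein Csn1s2b (1.54, adjusted p = 0.0426, and up to 0.263 in other settings, where the call was lost without tumour 1, 2, 6 or 8 and without normal sample 1, 2, 3 or 5). With array weights 12 of its genes fell. Tumour 2 differs from the transplants in its parity label and in not being labelled Transplant, which cannot be told apart.

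**Figure D2:**
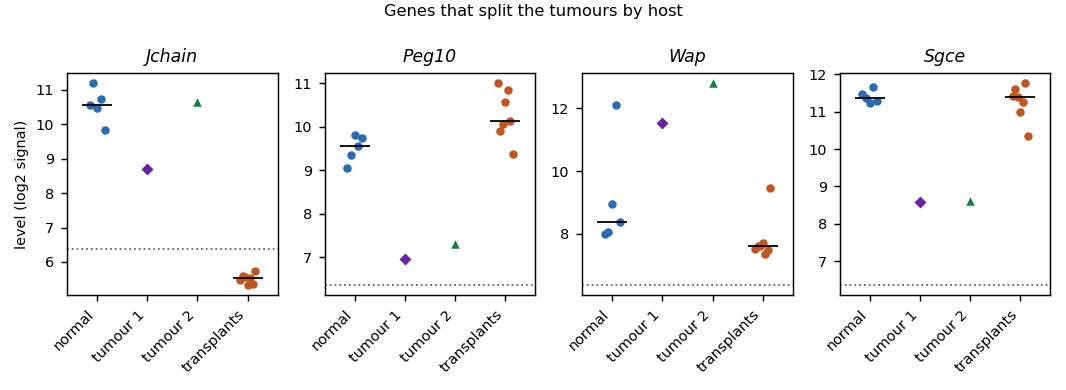
Levels (log2 signal, y axis) of Jchain, Peg10, Wap and Sgce on each array, by normal tissue, tumour 1 (nulliparous), tumour 2 (parous) and the 7 transplants; points are arrays, bars are medians, and the dotted line marks the background level where it falls within the axis. Jchain and Peg10 passed the direct test between transplants and the other tumours, and Wap and Sgce did not.

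Genes of the fat cell fell furthest. Of 19 lipid droplet and lipolysis genes 16 fell and 0 rose (median -3.34), and of 23 genes of fat synthesis 21 fell (median -2.42), against 13.4% of all genes. In the 2 other tumours 14 and 20 of these were called lower as well. Aqp7, the channel that lets glycerol out of fat cells, read 6.30, 6.70 and 7.10 as the lowest, median and highest tumour and 11.99, 12.24, 12.48, 12.72 and 12.80 in normal tissue (-5.72 ± 0.15, adjusted p = 9.22e-14). Tumours 1 and 2 stood at 6.82 and 7.07, far below every normal sample. The droplet proteins Plin1 and Cidec differed by -4.82 and -5.13, the lipases Lpl, Lipe and Pnpla2 by -4.93, -3.37 and -2.93, and the fatty acid carriers Cd36 and Fabp4 by -4.33 and -4.12.

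Along the route to stored fat, Gpd1, which makes glycerol phosphate, fell by 5.18 and Dgat2, which adds the last fatty acid, by 4.55. Thrsp, a regulator of fat synthesis, differed by -5.12 ± 0.22, the insulin-driven glucose carrier Slc2a4 by -3.40 ± 0.19, and the enzymes Acaca and Fasn by -3.0 ± 0.12 and -2.93 ± 0.28. Pparg, the master transcription factor of fat cells, read 8.13 to 9.01 in tumours against 12.25 to 12.65 in normal tissue (-3.96 ± 0.14). Its partner Cebpa differed by -1.83 ± 0.23, and the fat hormones Retn and Adipoq by -5.39 and -6.18. Adipoq and Retn were the least even of these 4 in tumours, and Adipoq ranged from 6.07 to 8.33. Of the 12 brown fat genes 8 fell and 1 rose. Ucp1, the uncoupling protein that makes heat, differed by -2.20 ± 0.52 and Cox8b, a subunit of cytochrome oxidase, by -4.92 ± 0.21. In the 2 other tumours 3 of the brown fat genes were called lower (25.0%, against 8.0% of all genes). The median of the brown fat list was -1.15 there and -1.31 in transplants. In bulk tissue fewer cells of a type and less RNA for each cell cannot be told apart, here and in the results that follow.

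Mitochondrial fuel genes fell as well. Of 17 genes of fatty acid oxidation 14 fell (82.4%, against 13.4% of all genes, median -0.81). Ehhadh of the peroxisome differed by -1.76 and Hadhb of the trifunctional protein by -1.27. Of 24 genes of the tricarboxylic acid cycle and its entry 14 fell (58.3%) and 0 rose (median -0.56). Pcx, which turns pyruvate into oxaloacetate and is abundant in fat, differed by -3.82 ± 0.18, Idh1 by -1.15 ± 0.19 and citrate synthase (Cs) by -0.83 ± 0.11. In the 2 other tumours 10 and 7 of these 2 lists were lower. The fat cell markers above fell on the same arrays, and their part in the fall of these genes was not tested.

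Genes that hold epithelial cells together fell. Of 24 junction genes 17 fell (70.8%, against 13.4% of all genes) and 0 rose (median -1.28). Cdh1, E-cadherin, read 7.60, 8.71 and 10.06 as the lowest, median and highest tumour and 10.65, 10.87, 10.96, 11.19 and 11.36 in normal tissue, with no overlap (-2.35 ± 0.39, adjusted p = 2.41e-04). Epcam, an adhesion protein of epithelium, differed by -2.65 ± 0.71 over all tumours and by -2.04 in the 2 others, where it did not pass (adjusted p = 0.241). The claudins Cldn8, Cldn3 and Cldn7, which seal tight junctions, differed by -2.61, -1.63 and -1.59, and occludin (Ocln) by -1.77. Cldn4 differed by -1.30 ± 0.38 (adjusted p = 0.0177), and that call was lost without normal sample 2 (adjusted p = 0.0551) and with MMTV-Cre tumours only (adjusted p = 0.0521). Rab25 and Ap1m2, which sort proteins to the epithelial membrane, differed by -2.31 and -2.18. The 2 other tumours called 12 of the junction genes lower.

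The regulators of epithelial identity went the same way, with 13 of 18 lower (72.2%, against 13.4% of all genes, median -1.28). Elf5, the transcription factor of milk-forming cells, differed by -3.86 ± 0.43, and its relative Ehf by -3.28 ± 0.54. The epithelial splicing factors Esrp1 and Esrp2 differed by -2.73 and -1.51, Grhl2, which keeps the epithelial programme on, by -1.60, and the membrane proteases Prss8 and St14 by -2.43 and -2.0. Against the list, the transcription factor Klf5 rose (0.72 ± 0.20) and also rose in the 2 other tumours (1.25).

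Keratins split. Krt5, Krt17 and Krt14, of basal cells, fell with differences of -3.77, -2.58 and -1.51, and the luminal Krt19 with -3.01. The luminal pair Krt8 and Krt18 did not pass, with -0.02 ± 0.45 (adjusted p = 0.985) and -0.97 ± 0.51 (adjusted p = 0.185). Krt8 read 10.95, 12.28 and 13.53 as the lowest, median and highest tumour against 12.30 to 12.57 in normal tissue, so tumours lay on both sides of the normal range. Krt5 read 6.84 to 8.29 against 10.81 to 11.27. The median of the keratin list was -1.08 in transplants and -0.43 in the 2 others, and the direct test called 0 of its genes.

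Genes of hormone-sensing luminal cells fell in 11 of 17 cases (64.7%, against 13.4% of all genes). Esr1, the oestrogen receptor, read 8.14 to 8.93 in tumours against 10.13 to 10.56 (-1.76 ± 0.14), Foxa1, which opens chromatin for it, differed by -1.97 ± 0.35, and Pgr, the progesterone receptor, by -1.42 ± 0.38. The growth hormone receptor Ghr, which fat cells also express, differed by -2.50 ± 0.28 and Stat5a, which carries the prolactin signal, by -1.45 ± 0.17. Of 21 genes of the contractile myoepithelial layer 13 fell (61.9%). Oxtr, the oxytocin receptor of milk ejection, differed by -2.59 ± 0.19, the smooth muscle genes Myh11 and Cnn1 by -2.74 and -2.36, and Trp63, the transcription factor of basal cells, by -1.20 ± 0.13. Sncg, a synuclein that fat cells express too, had the largest fall of the list (-4.24 ± 0.18). The 2 other tumours called 6 and 11 of these lists lower (35.3% and 52.4%, against 8.0% of all genes).

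Genes of microRNAs, short RNAs that bind the 3′ ends of messages through a seed at bases 2 to 8, were measured too, a class looked at after values were seen. Of 272 microRNA genes that matched RefSeq by symbol, 159 exceeded the background level on at least 1 array, 24 were lower (8.82%) and 16 higher (5.88%) in tumours, both below the shares of all genes (13.4% and 14.2%). With probe sets of low mean left out 6 were lower and 6 higher, and without normal sample 2 or normal sample 3 only 9 were higher, while with array weights 26 were. The probe sets measure RNA that holds the hairpin, not the mature form. The mature strands of 9 members that were called are shown, picked because the text describes them and because members with the same seed can be read together. Sequences are RefSeq's, from GRCm38.p6, with the seed in capitals.
miR-200b-3p: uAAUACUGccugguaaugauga
miR-200a-3p: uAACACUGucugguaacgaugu
miR-205-5p: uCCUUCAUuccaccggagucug
miR-199b-3p: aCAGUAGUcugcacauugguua
miR-497a-5p: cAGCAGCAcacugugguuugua
miR-15b-5p: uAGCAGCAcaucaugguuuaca
miR-16-5p: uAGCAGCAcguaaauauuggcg
miR-31-5p: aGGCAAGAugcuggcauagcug
miR-221-3p: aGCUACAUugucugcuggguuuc

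Mir200b, Mir200a and Mir205, of epithelium, fell. Mir200b, whose product represses the mesenchymal factors Zeb1 and Zeb2, read 5.45, 5.75 and 6.32 as the lowest, median and highest tumour and 7.49, 7.49, 7.55, 8.13 and 8.36 in normal tissue (-1.97 ± 0.17, adjusted p = 1.33e-07). All tumours were below the background level and all normal samples above it. Its neighbour Mir200a differed by -0.60 ± 0.11, and their family member Mir200c, on another chromosome, by -0.25 ± 0.11, which did not pass (adjusted p = 0.121). Mir205, of basal epithelium, read 5.53 to 6.21 against 6.72 to 7.48 (-1.09 ± 0.15). The 2 other tumours were lower in both: Mir200b by -1.77 and Mir205 by -1.22. Of the targets, Zeb1 was at 0.44 ± 0.29 (adjusted p = 0.314) and Zeb2 fell (-0.94 ± 0.16).

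Of 6 measured genes with the AGCAGCA seed 4 were higher, 1 was lower and 1 was not called. Mir15b rose (1.33 ± 0.26) and so did Mir16-2 (0.83 ± 0.19), which lies beside it on chromosome 3, while Mir497 on chromosome 11 fell (-0.84 ± 0.10). Its neighbour Mir195a did not pass (-0.28 ± 0.11, adjusted p = 0.0796). Mir15a (0.44 ± 0.15, adjusted p = 0.0349) and Mir16-1 (0.55 ± 0.19, adjusted p = 0.043), on chromosome 14, were higher too, but lost the call in 10 and 13 of the 23 other settings. For Mir15a these were both further normalisations, MMTV-Cre tumours only, and leaving out any of tumours 3 to 5 or normal samples 2 to 5 (adjusted p up to 0.255). For Mir16-1 they were MMTV-Cre tumours only and leaving out any of tumours 2 to 9 or normal samples 2 to 5 (adjusted p up to 0.127). Mir15b read 6.22 to 8.03 in tumours and 5.48, 5.82, 5.88, 5.98 and 6.04 in normal tissue, where it was not above background. Mir15b and Mir16-2 lie within Smc4, a condensin gene that rose by 1.28. Mir31 rose with no overlap, from 6.47 to 6.62 in normal tissue to 7.28 to 8.46 in tumours (1.11 ± 0.18). Mir221 differed by 0.83 ± 0.22 over all tumours, but tumour 1 at 5.75 lay inside the normal range and the normal side was not above background. Mir199b, of stromal cells, fell by 1.20.

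**Figure D3:**
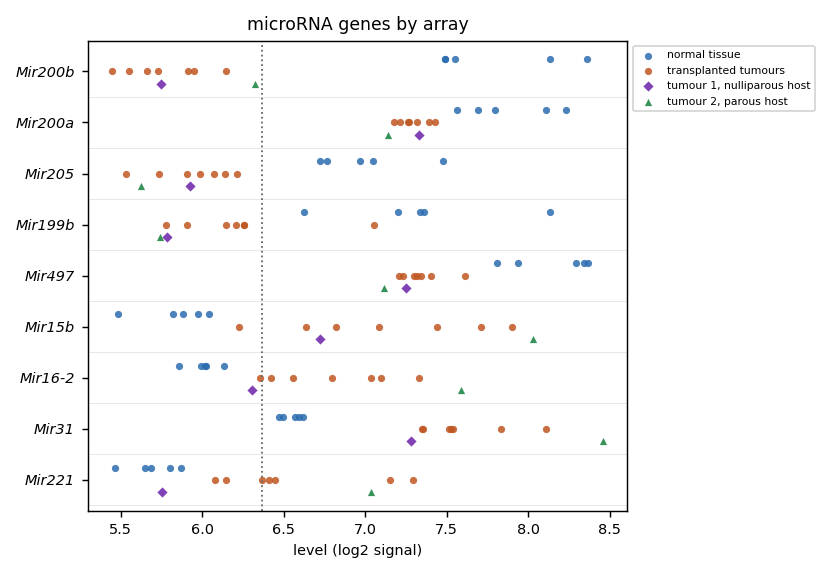
Levels on each array (log2 signal, x axis) of 9 microRNA genes; each point is 1 array, coloured by normal tissue, transplanted tumour, tumour 1 or tumour 2, with the background level of 6.37 dotted. Mir200b, Mir200a, Mir205 and Mir497 lie lower in all 9 tumours than in any normal sample, and Mir15b, Mir16-2 and Mir31 lie higher in all of them.

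Genes of cell division rose together. Of 53 chromosome segregation genes 46 rose and 0 fell (median 1.28), and of 43 genes of origin licensing and DNA synthesis 29 rose and 0 fell (median 0.80), against 14.2% of all genes. The second list had a mean level of 8.27 to 9.70 in the 5 normal samples, and without normal sample 1 only 13 of its genes rose. In the 2 other tumours 10 of the first list (18.9%) and 3 of the second (6.98%) were called higher, against 5.27% of all genes, and the medians there were 1.28 and 0.79.

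Anln, an actin binder of the cleavage furrow, had the largest rise of the segregation list. It read 10.20, 11.20 and 11.62 as the lowest, median and highest tumour and 7.41, 8.66, 8.70, 9.21 and 9.93 in normal tissue, with no overlap (2.29 ± 0.44, adjusted p = 8.60e-04). Ncapg, a condensin subunit, read 9.34 to 10.44 against 6.07 to 8.99 (2.04 ± 0.46), and Prc1, which bundles the midzone spindle, read 9.98 to 10.66 against 6.86 to 9.44 (1.92 ± 0.44). Racgap1 and Ect2, which set the place of the furrow, differed by 1.90 and 1.89. The spindle checkpoint kinase Bub1b differed by 1.62 ± 0.35, the mitotic kinases Plk1 and Aurka by 1.69 and 1.38, and Cenpa, the histone of the centromere, by 1.61 ± 0.23. Mki67, the usual proliferation marker, did not pass (0.78 ± 0.35, adjusted p = 0.109).

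In DNA synthesis the clamp loader subunit Rfc3 rose most. It read 10.19, 11.06 and 11.64 as the lowest, median and highest tumour and 8.77, 9.15, 9.52, 9.71 and 9.84 in normal tissue (1.60 ± 0.34, adjusted p = 0.00219), and by 1.85 in the 2 other tumours. The origin genes Orc6 and Cdt1 differed by 1.23 and 1.17, the helicase subunit Mcm3 by 1.11 and Cdc45 by 1.00. Of 23 nucleotide genes 12 rose, led by Ctps, which makes CTP (1.62 ± 0.36), Dut (1.16 ± 0.26) and Ppat, the first enzyme of purine synthesis (1.14 ± 0.23), all 3 also higher in the 2 other tumours.

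Around Rb1 itself, 10 of 22 genes of the Rb and E2F list rose (45.5%) and 2 fell (9.09%), against 14.2% and 13.4% of all genes. Without normal sample 1 only 4 rose. Foxm1, a transcription factor of mitotic genes, differed by 1.32 ± 0.32, Tfdp1, the partner of E2F proteins, by 0.98 ± 0.21, and Skp2, which marks p27 for destruction, by 1.00 ± 0.22. E2f1 differed by 0.71 ± 0.21 (adjusted p = 0.018), a call lost without normal sample 1 (adjusted p = 0.0692). The Rb relatives Rbl1 and Rbl2 did not pass (0.37 ± 0.24 and -0.10 ± 0.15). Cdkn2a and Cdkn2b both rose. Cdkn2b encodes an INK4 inhibitor of the kinases upstream of Rb, and Cdkn2a has such an inhibitor among its products. Cdkn2a has 2 promoter windows and was read as 1 value, so its different transcripts were not told apart. Its rise is therefore not assigned to the INK4 product. Cdkn2a read 8.30, 10.52 and 11.05 as the lowest, median and highest tumour and 7.43, 7.45, 7.63, 7.65 and 7.75 in normal tissue (2.75 ± 0.41, adjusted p = 7.74e-05), and Cdkn2b differed by 1.63 ± 0.28. Among kinases and cyclins Cdk6 differed by 1.27 ± 0.21, Cdk1 by 1.45 ± 0.41, Ccne1 by 1.06 ± 0.26 and Ccnb2 by 1.61 ± 0.35. Ccnd2, a D cyclin, fell (-1.17 ± 0.36), while Ccnd1 (0.40 ± 0.42), Cdk4 (0.16 ± 0.16) and Cdkn1b (0.29 ± 0.13) did not pass.

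Promoter letters were searched for E2F sites and for the CHR described above. The lists are named by function, not by promoter element. RefSeq windows of GRCm38.p6, 250 bases before to 50 after the start, were held by 15614 of the genes tested. A window was counted as holding an E2F site where it had TTTCCCGC, TTTCGCGC, TTTGCCGC or TTTGGCGC on either strand, and a CHR where it had TTTGAA on either strand. The E2F letters were in 3.48% of the genes, in 6.23% of those higher in tumours, 2.65% of those lower and 3.09% of those not called. They were in 47.1% of the licensing and synthesis list (16 of 34 genes with a window) and in 12.8% of the segregation list (6 of 47). The CHR letters were in 17.3% of all genes, 70.2% of the segregation list (33 of 47) and 14.7% of the licensing list (5 of 34), and in 15.6% and 16.1% of the genes higher and lower. Members of the licensing list that were not called held the E2F letters in 66.7% (8 of 12) and those that rose in 36.4% (8 of 22). The CHR search was added after values were seen, and a match is a description of letters, not of binding.

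The stretches shown are 120 bases long, lie within the 250 bases before the start, and come from members that rose, with the E2F letters in capitals for Cdkn2a (chr4:89294679-89294798, minus strand), Rfc3 (chr5:151651209-151651328, minus strand) and Cdk1 (chr10:69353004-69353123, minus strand). The CHR letters are in capitals for Ncapg (chr5:45669805-45669924, plus strand), Prc1 (chr7:80294356-80294475, plus strand) and Ect2 (chr3:27153953-27154072, minus strand).
Cdkn2a: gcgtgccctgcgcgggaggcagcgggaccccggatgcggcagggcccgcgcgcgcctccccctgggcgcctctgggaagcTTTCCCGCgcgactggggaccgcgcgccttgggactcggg
Rfc3: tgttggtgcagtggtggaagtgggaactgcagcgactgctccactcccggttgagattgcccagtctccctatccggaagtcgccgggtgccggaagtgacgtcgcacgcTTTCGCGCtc
Cdk1: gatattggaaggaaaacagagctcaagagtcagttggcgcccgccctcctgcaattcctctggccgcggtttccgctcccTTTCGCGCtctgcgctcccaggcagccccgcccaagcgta
Ncapg: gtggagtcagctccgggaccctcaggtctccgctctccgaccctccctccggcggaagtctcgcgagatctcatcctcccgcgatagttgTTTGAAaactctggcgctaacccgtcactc
Prc1: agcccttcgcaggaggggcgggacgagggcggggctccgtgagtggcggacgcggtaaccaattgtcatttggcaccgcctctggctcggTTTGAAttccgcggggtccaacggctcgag
Ect2: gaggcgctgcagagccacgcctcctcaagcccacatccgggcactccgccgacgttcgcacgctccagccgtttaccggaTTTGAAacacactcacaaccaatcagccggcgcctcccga
The differences of these 6 genes were 2.75, 1.60, 1.45, 2.04, 1.92 and 1.89 in that order. Cdkn2a, Prc1 and Ect2 have 2 windows each, of which 1 is shown. For Cdkn2a it was not determined if the window shown is that of the INK4 transcript. The first base of the letters in capitals lies 99 bases before the start in Cdkn2a, 10 in Rfc3, 131 in Cdk1, 30 in Ncapg and in Prc1, and 114 in Ect2.

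DNA repair and chromatin genes moved less evenly. Of 27 homologous recombination and Fanconi genes 8 rose, but the count was 3 without normal sample 1, 5 without normal sample 4, 16 without normal sample 5, 16 with array weights and 15 on the 14 arrays alone. Fancd2, of the Fanconi pathway, held in each setting (1.04 ± 0.23), as did the helicase Brip1 (1.05 ± 0.24). Of 25 chromatin genes 5 were higher and 4 lower. The count of higher genes was 11 with array weights, 10 on the 14 arrays alone and 9 without normal sample 5. It was 3 with cyclic loess, with MMTV-Cre tumours only, and without tumour 5 or 8 or normal sample 1, 2 or 3. Tet1, which oxidises methylated cytosine, fell (-1.64 ± 0.20), and Ezh1, the Polycomb methyltransferase of resting cells, fell by 0.50. Nsd2, a histone methyltransferase, and Asf1b, a histone chaperone of dividing cells, rose (1.34 and 1.23). Of apoptosis regulators Bcl2, which protects cells, fell (-0.94 ± 0.15), and the death receptor Tnfrsf10b (1.36 ± 0.31), Bcl2l11, which encodes Bim (1.15 ± 0.17), and Apaf1 (0.97 ± 0.12) rose; these 4 were called in the 2 other tumours as well.

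Glycolysis genes rose more often than all genes did, and their share of falls was near that of all genes. Slc2a1, the basal glucose carrier, rose from 10.98 to 11.26 in normal tissue to 11.79 to 12.98 in tumours (1.5 ± 0.20). The lactate exporter Slc16a3 differed by 2.42 ± 0.28, Pgk1 by 1.54 ± 0.20, Pkm by 1.30 ± 0.20 and Pgam1 by 0.89 ± 0.13, all 4 of them called in the 2 other tumours too. Ldhb, the lactate dehydrogenase of oxidative tissue, fell (-1.47 ± 0.32), as did Pfkfb3, a regulator of glycolysis (-1.69 ± 0.27). Of 23 glycolysis genes 8 rose and 3 fell, with a median of 0.13. Among 23 hypoxia genes 10 rose, with the collagen hydroxylases Plod2 (1.70 ± 0.33) and P4ha1 (1.34 ± 0.20) and the carbonic anhydrase Car9 (1.09 ± 0.21), while Epas1, which encodes HIF-2 alpha and is strong in vessels and fat, fell (-1.83 ± 0.17).

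Of 16 genes of the serine and one-carbon list 5 were higher (31.2%), 3 lower (18.8%) and 8 not called, with a median of 0.38, and with array weights 8 were higher. Mthfd2 read 9.44, 10.09 and 10.49 as the lowest, median and highest tumour and 7.48, 8.11, 8.36, 8.60 and 8.92 in normal tissue (1.80 ± 0.27, adjusted p = 8.80e-05). Mthfd1l (1.61 ± 0.21), Mthfd2l (1.13 ± 0.27) and Aldh1l2 (1.79 ± 0.27), which act in the same mitochondrial folate steps, rose too. Aldh1l1, the cytosolic form of Aldh1l2, fell (-2.49 ± 0.19). All 5 were called the same way in the 2 other tumours. The cystine carrier Slc7a11 (1.55 ± 0.44) and the glycine carrier Slc6a9 (1.30 ± 0.19) rose among 10 of 25 transport and ATF4 genes, and Slc1a5, a glutamine carrier, fell (-2.46 ± 0.13). Of antioxidant genes, glutathione reductase (Gsr, 1.29 ± 0.14) and Srxn1 (0.92 ± 0.18) rose, while Aldh1a1 (-3.26 ± 0.28), Gsta3 (-2.54 ± 0.40) and catalase (Cat, -1.56 ± 0.10) fell, and the list as a whole had 7 rises and 9 falls among 27.

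**Figure D4:**
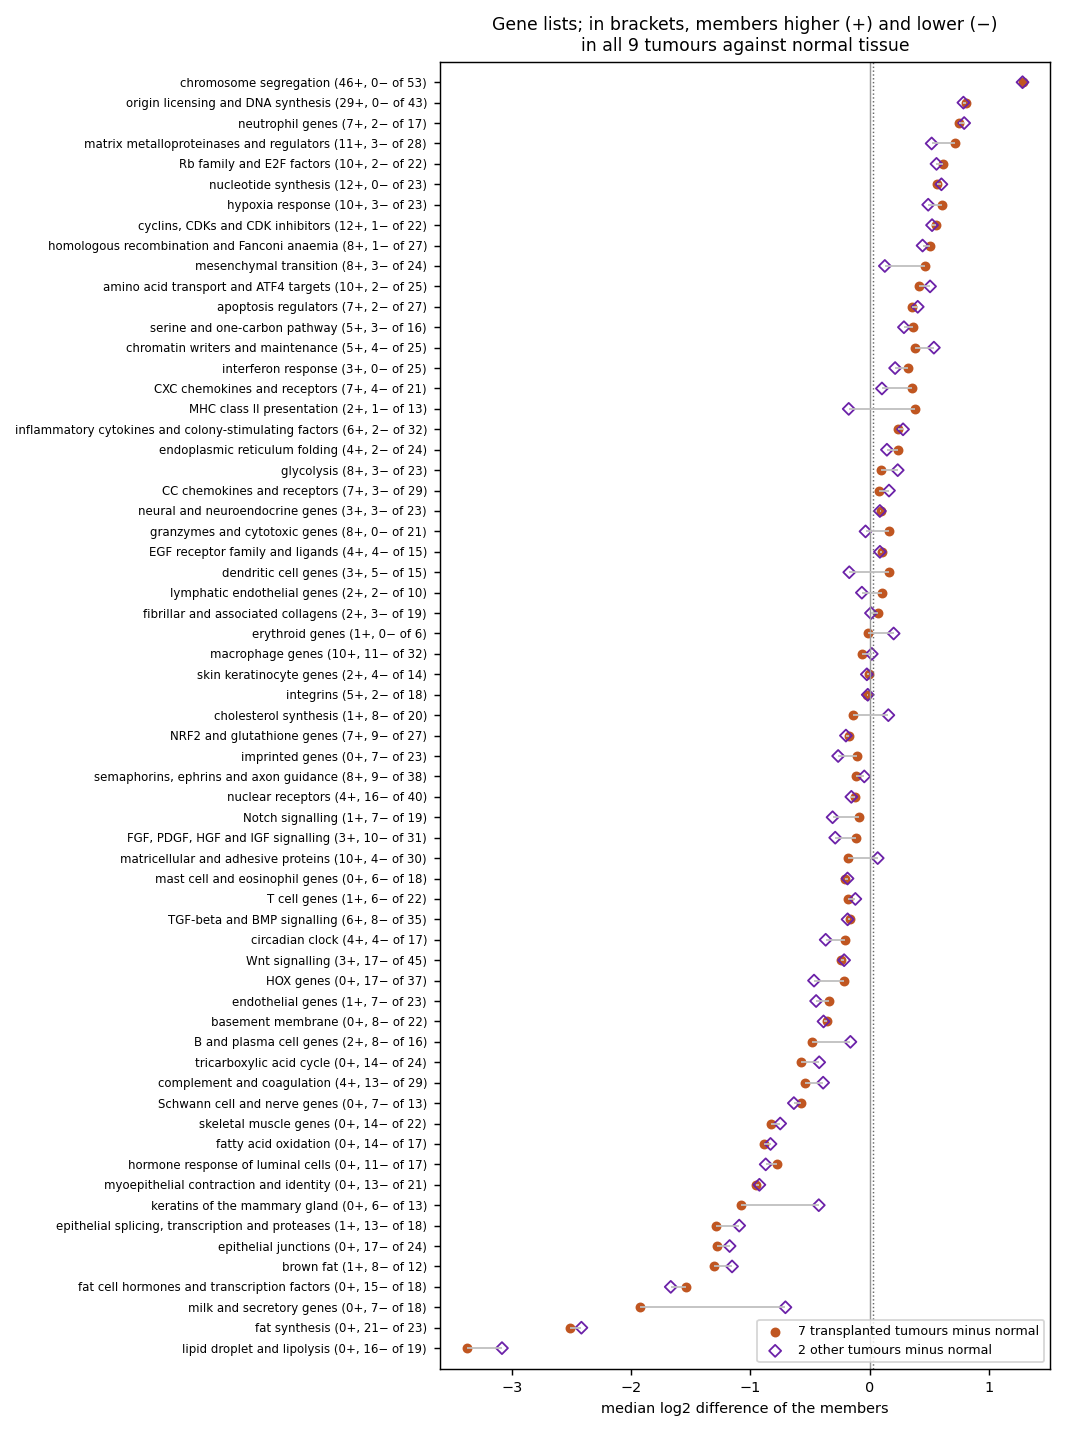
Median log2 difference of the members of 63 gene lists (x axis) in the 7 transplants (filled) and the 2 other tumours (open diamonds) against the same normal samples, with counts of called members in brackets and the median over all genes (0.03) dotted. Lists of fat, epithelium and milk lie at the bottom and chromosome segregation at the top, and the largest distances between the symbols are those of the milk and keratin lists.

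Matrix genes moved in both directions. Of 28 metalloproteinases and regulators 11 rose (39.3%) and 3 fell (10.7%), against 14.2% and 13.4% of all genes. Mmp13, a collagenase, read 8.07 to 13.82 in tumours against 6.61, 6.62, 6.71, 6.89 and 6.99 in normal tissue (3.84 ± 0.83). Plaur, the urokinase receptor, differed by 2.22 ± 0.30, the cross-linking enzymes Lox and Loxl3 by 1.82 and 2.21, and Adamts5, an aggrecanase, by -2.24 ± 0.44. Of 19 collagens 2 were higher (10.5%) and 3 lower (15.8%), near the shares of all genes. These were Col12a1 (2.62 ± 0.47) and Col8a1 (2.56 ± 0.32), which rose, and Col14a1 (-1.90 ± 0.26) and Col15a1 (-1.69 ± 0.17), which fell, each also called in the 2 other tumours. Col3a1, of fibrous tissue, was lower too (-0.81 ± 0.29, adjusted p = 0.0433), but lost the call without any 1 of tumours 2 and 4 to 8 or of normal samples 1 to 4 (adjusted p up to 0.12). The basement membrane list had 8 falls and 0 rises in 22 genes, with the laminin chain Lama2, of fat, muscle and nerve, at -3.41 ± 0.25. Tnc, tenascin C of healing wounds, read 10.07 or more in tumours against 8.03 to 8.85 (3.47 ± 0.50), and Ccn4, a Wnt-induced matricellular protein, differed by 2.12 ± 0.38. The small proteoglycans Lum, Prelp and Fmod, of resting connective tissue, fell (-3.32, -2.36 and -1.45), as did tenascin X (Tnxb, -3.14). Itga5, the fibronectin receptor chain, rose (1.85 ± 0.17).

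Mesenchymal genes did not move as a block. S100a4, a calcium binder of motile cells, read 10.56, 11.67 and 13.10 as the lowest, median and highest tumour against 8.12, 8.29, 8.89, 9.06 and 9.19 in normal tissue (3.02 ± 0.37). The transcription factors Snai1 (1.82 ± 0.19), Twist1 (0.88 ± 0.24) and Foxc1 (1.22 ± 0.33) rose, and all 3 were called in the 2 other tumours. Snai2 (-0.57 ± 0.41) did not pass, and Zeb2 fell as given above. Fap, of activated fibroblasts, fell (-1.88 ± 0.32), and vimentin (Vim) differed by 0.22 ± 0.06, which did not hold with cyclic loess normalisation (adjusted p = 0.126). Over the list 8 of 24 rose (33.3%) and 3 fell (12.5%), against 14.2% and 13.4% of all genes, and with array weights 13 rose.

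Of 15 genes of the EGF family 4 were higher and 4 lower (26.7% each, against 14.2% and 13.4% of all genes), and 7 were not called (median 0.1). The ligands Epgn (2.88 ± 0.47), Hbegf (2.45 ± 0.34), Ereg (2.29 ± 0.69) and Nrg1 (1.43 ± 0.38) rose. The receptors Erbb3 (-2.0 ± 0.29), Erbb4 (-1.28 ± 0.16) and Egfr (-1.03 ± 0.30) fell, and Erbb2 did not pass (-0.14 ± 0.18). Hbegf read 9.43, 10.43 and 10.87 as the lowest, median and highest tumour against 7.86, 7.88, 7.91, 8.03 and 8.05 in normal tissue, with no overlap, and Nrg4, a neuregulin released by fat, fell by 4.10. The 2 other tumours called Epgn and Hbegf higher (2.57 and 2.22) and Erbb3 lower (-1.69). Fgf10, the stromal signal that builds the mammary bud, read 6.51 to 8.57 against 10.03 to 10.63 (-3.32 ± 0.26), its receptor Fgfr2 differed by -1.98 ± 0.33 and the growth factor Igf1 by -2.19 ± 0.24. Of the IGF binding proteins Igfbp5 fell (-3.33 ± 0.50) and Igfbp3 rose (1.90 ± 0.27). Met, the HGF receptor, spread over 10.65 to 13.60 in tumours against 9.73 to 10.10 and did not pass (1.77 ± 0.85, adjusted p = 0.138).

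In the TGF-beta family the activin subunit Inhba stood alone in the size of its rise, and Tgfb1 rose by 0.67. Acvr1c, the activin receptor ALK7 of fat cells, fell (-4.04 ± 0.13), as did Bmp7 (-2.52 ± 0.19) and the BMP target Id4 (-1.99 ± 0.20). Of 45 Wnt pathway genes 17 fell (37.8%) and 3 rose (6.67%), against 13.4% and 14.2% of all genes. With array weights 6 rose. In the 2 other tumours 13 were lower (28.9%, against 8.0% of all genes). Rspo1, which strengthens Wnt signals in ducts, differed by -3.34 ± 0.35, the receptor Fzd4 by -2.56 ± 0.27, the secreted inhibitors Sfrp4 and Wif1 by -2.85 and -2.32, and the feedback target Axin2 by -0.92. Dkk2, another secreted inhibitor, rose (2.56 ± 0.68), with 2.70 in the 2 others, where it did not pass (adjusted p = 0.104). Notch genes fell in 7 of 19 cases (36.8%, against 13.4% of all genes). Notch1 differed by -0.86 ± 0.14, Notch3 by -1.16 ± 0.09 and the glycosyltransferase Mfng by -1.26 ± 0.14.

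Of 37 HOX genes, the transcription factors that mark a cell's place along the body, 17 fell (45.9%, against 13.4% of all genes), 0 rose and 20 were not called, and 15 were lower in the 2 other tumours. Cluster C held the deepest falls. Hoxc8 read 6.73, 7.21 and 8.65 as the lowest, median and highest tumour and 10.49, 10.67, 10.76, 10.82 and 11.03 in normal tissue (-3.31 ± 0.28, adjusted p = 1.15e-07), and Hoxc6, Hoxc9 and Hoxc10 differed by -2.12, -1.85 and -1.70. In cluster C 6 of 9 members fell, in A 5 of 10, in D 5 of 9 and in B 1 of 9. Members with high numbers in each cluster (11 to 13) did not pass. Of 23 imprinted genes 7 fell (30.4%, against 13.4% of all genes), 0 rose and 16 were not called, with a median of -0.09. The paternally expressed Nnat (-4.73 ± 0.39), Ndn (-3.72 ± 0.44), Peg3 (-2.98 ± 0.31) and its neighbour Zim1 (-2.35 ± 0.26) led. Ndn read 6.35 to 9.17 against 11.03 to 11.15, with tumours 1 and 2 at 8.38 and 7.61. Nnat and Ndn are also expressed in fat and stroma, which fell on the same arrays, and the part of that in the result was not tested.

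**Figure D5:**
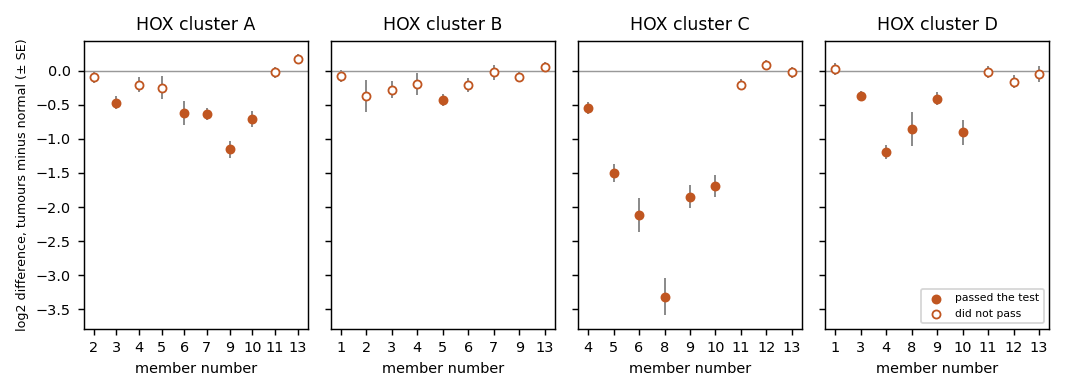
Log2 difference (± SE, y axis) of each measured HOX gene between the 9 tumours and 5 normal samples, by cluster and member number (x axis); filled points passed the test at an adjusted p below 0.05. Cluster C members 5 to 10 lie lowest, with Hoxc8 at -3.31, and members 11 to 13 of each cluster lie near 0.

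Nuclear receptors fell in 16 of 40 cases and rose in 4. Besides Pparg, Esr1 and Pgr, those that fell included Rxrg (-2.88 ± 0.18), the liver X receptor Nr1h3 (-1.96 ± 0.21), the mineralocorticoid receptor Nr3c2 (-1.78 ± 0.13) and the thyroid hormone receptor Thrb (-1.34 ± 0.22). Nr2f1, COUP-TF1, rose (1.10 ± 0.16) and did so in the 2 other tumours too (1.28). Clock genes were split, with 4 higher and 4 lower of 17 (23.5% each, against 14.2% and 13.4% of all genes).

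Myeloid genes moved in both directions. Of 32 macrophage genes 10 rose (31.2%) and 11 fell (34.4%), against 14.2% and 13.4% of all genes, and the median was 0.00. Retnla, a product of alternatively activated macrophages and fat, read 4.97, 5.95 and 8.81 as the lowest, median and highest tumour and 12.27, 12.38, 12.40, 12.42 and 12.50 in normal tissue (-6.10 ± 0.59, adjusted p = 6.50e-07). The lectins of resident macrophages Cd209f (-4.80 ± 0.71), Cd209d (-4.61 ± 0.53) and Clec10a (-3.07 ± 0.39) fell, as did the haemoglobin scavenger Cd163 (-2.23 ± 0.44). The CD209 genes are near-identical copies that can share probes. In the other direction the inflammatory lectins Clec4d (2.24 ± 0.45) and Clec4n (2.46 ± 0.35), the scavenger receptor Msr1 (2.44 ± 0.27) and the antibody receptor Fcgr1 (1.82 ± 0.34) rose. Clec4d, Clec4n and Msr1 were also higher in the 2 other tumours (2.74, 2.74 and 3.08).

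Of 29 CC chemokine genes 7 were higher, 3 lower and 19 not called, and of 21 CXC genes 7 were higher, 4 lower and 10 not called. The CXC rises numbered 4 with MMTV-Cre tumours only and without normal sample 1 or 4, and 11 with array weights. Ccl2, which draws monocytes, read 9.62, 11.25 and 12.49 as the lowest, median and highest tumour and 8.55, 8.68, 8.69, 8.74 and 9.27 in normal tissue (2.37 ± 0.37). Ccl7 (2.38 ± 0.37), Ccl12 (2.52 ± 0.41), Ccl3 (2.48 ± 0.42) and the receptor Ccr1 (2.13 ± 0.32) rose, while Ccl11 (-2.82 ± 0.35) and Ccl24 (-3.07 ± 0.17), the eotaxins that draw eosinophils, fell. Each of these 7 was called the same way in the 2 other tumours. Cxcl10 rose (2.76 ± 0.44), and Cxcl15 fell (-3.17 ± 0.20). The inflammatory genes Il1b (2.71 ± 0.54) and Ptgs2, cyclooxygenase 2 (3.84 ± 0.46), rose, and Ptgs2 read 11.10 to 13.50 against 7.63 to 9.53 with no overlap. Of 17 neutrophil genes 7 rose (41.2%, against 14.2% of all genes). Csf3r differed by 1.65 ± 0.35, S100a9 by 1.89 ± 0.52 and Trem1 by 2.12 ± 0.42.

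Lymphocyte genes were uneven. Besides Gzmc and Gzmd, Gzme (2.27 ± 0.53), Gzmf (3.17 ± 0.52) and Gzmg (2.25 ± 0.57) were higher, and normal levels of Gzmf and Gzmg were not above background. Gzmb was at 1.34 ± 0.43 and lost its call with MMTV-Cre tumours only (adjusted p = 0.078) and without normal sample 1, 2, 4 or 5. The granzyme genes are near copies of each other and may share probes. Of 21 cytotoxic genes 8 were higher (38.1%, against 14.2% of all genes). The count was 5 with MMTV-Cre tumours only and without normal sample 2, 4 or 5. Of 22 T cell genes 6 were lower (27.3%, against 13.4% of all genes), 1 higher and 15 not called (median -0.18). With array weights and on the 14 arrays alone 10 were lower. The T cell receptor chains Cd3g (-2.06 ± 0.35) and Cd3e (-0.93 ± 0.17) fell on the same arrays, and Havcr2, the checkpoint receptor TIM-3, rose (1.65 ± 0.32). Of B and plasma cell genes 8 of 16 fell, with Jchain at -4.12, Irf4 at -1.89 ± 0.13 and Bank1 at -1.39 ± 0.35. Of 25 interferon genes 3 were higher (5 without tumour 6 or with array weights), 0 lower and 22 not called. The share of 3 in 25 was below the 14.2% of all genes called higher. Among these 3, Ifit2 held in each setting (1.04 ± 0.18).

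Complement and clotting genes fell in 13 of 29 cases (44.8%, against 13.4% of all genes). Among them were the regulators Cd55 (-3.01 ± 0.27), Cd59a (-2.46 ± 0.23) and Serping1 (-2.51 ± 0.54) and the components C4b (-2.34 ± 0.43) and C7 (-2.07 ± 0.14). The 2 other tumours called 5 of the list lower (17.2%, against 8.0% of all genes), Cd55 (-2.91) and Cd59a (-1.99) among them.

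The mast cell proteases Cpa3 (-4.33 ± 0.86) and Mcpt4 (-3.94 ± 0.62) led 6 falls in 18 genes (33.3%, against 13.4% of all genes). Cpa3 read 5.71, 6.15 and 11.33 as the lowest, median and highest tumour and 11.67 to 12.04 in normal tissue, so the highest tumour lay just below the lowest normal sample. Of 13 nerve genes 7 fell (53.8%), with the sodium channel Scn7a at -4.22 ± 0.49 and Sox10, which specifies Schwann cells, at -1.95 ± 0.19. Of 23 endothelial genes 7 fell (30.4%), with the angiopoietin receptor Tek at -2.24 ± 0.23 and Kdr at -1.12 ± 0.25. Esm1, of sprouting vessel tips, rose (2.72 ± 0.37). Skeletal muscle genes fell in 14 of 22 cases (63.6%), and in 8 without normal sample 1 or normal sample 2. Their mean level ranged over 7.45 to 9.44 in the normal samples against 7.06 to 7.68 in tumours, so muscle RNA differed between normal samples. In the 2 other tumours 4 of the mast cell list (22.2%) and 5 of the nerve list (38.5%) were called lower. So were 5 of the endothelial list (21.7%) and 3 of the muscle list (13.6%), against 8.0% of all genes. The part of these cell types in the results above was not tested.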

How the data were processed

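RNA of 9 Rb/p53 tumours and 5 samples of normal mammary tissue was read on 1 Affymetrix array each. The deposited table holds log2 values of 35556 probe sets for all 17 arrays, made by the authors with RMA in Partek 5.6, per the submitters' processing notes. RMA corrects background, makes the distributions of arrays equal and joins probes into probe sets, so a shift shared by most genes of an array is removed, and low values are compressed. For the genome build and further settings, the sources used here give nothing. No depth is defined for arrays.

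A gene is a symbol that a probe set carries alone: 21789 probe sets carried 1 symbol, 1621 several and 12146 none in the platform table used here. The probe set with the highest mean stood for a symbol, which left 19938 genes. Trp53 and Cdkn1a share probe sets with other symbols and were not analysed here. Groups were taken from the labels. Genes were tested with limma 3.58.1 in R 4.3.3 (lmFit and eBayes, two-sided) on all 17 arrays, as 3 groups for the 9 tumours against normal tissue and as 4 groups with transplants and other tumours apart, and p was adjusted by Benjamini and Hochberg over all genes at 0.05. The comparisons with normal tissue share their controls. The script was tested on simulated data with known changes.

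The tumours, the 63 gene lists and the tests were chosen with earlier results of these data known, so no list's direction is independent support. Lists are described by counts and medians, with no list test. Named are the 12 widest gaps in each direction, up to 5 members of each list with the largest differences and up to 2 against it, the largest differences between transplants and other tumours, and a fixed set around Rb1, keratins, claudins and receptors; where fewer are named, those with stable calls were kept, and the microRNA genes, the CHR letters and further single genes were chosen after values were seen. Predicted genes and antibody segments were left out of the widest gaps. Alternatives were another variance prior, array weights, a filter on low means, and further normalisation by quantiles and by cyclic loess. Others were averaging the probe sets of a symbol, a difference of at least 1 as well, and other sets of arrays. Each of the 14 arrays compared was also left out in turn. Mature microRNA sequences and promoter windows came from RefSeq tables of GRCm38.p6.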

Additional observations from a re-analysis of the deposited data

Results flagged for a closer look

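Jchain was lower in the transplants than in the 2 other tumours (-4.17, limma adjusted p = 4.02e-04), and Peg10 was higher (3.12, limma adjusted p = 0.0124), with the values by array given above. The p53 tumours entered the comparison only through the spread. Of the 12 genes with the widest gaps above normal tissue, 8 lay above every normal sample on all 3 p53 arrays. Of the 12 with the widest gaps below, 12 lay below. These genes were picked by their gap from the same normal samples, and the same count over all genes was not made. On p53 replicate 2 Timp1, Gprc5a, Acpp and Fhl2 read 9.22, 7.05, 7.33 and 8.36, not above every normal sample. The title of p53 replicate 3 names the Rbp53 model, and without that array the counts were 8 and 12 on the 2 others. No cause was tested for any value here.

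Single arrays stood away from the rest of their group by Dixon's criterion in 37 of 562 groups of named genes (6.58%), where chance marks about 1 in 20. Tumour 9, from Ad-Cre, was the highest tumour for Cd55 (8.55), Col15a1 (9.36), Hoxc9 (7.75), Hoxc10 (7.53), Mcpt4 (10.18), Nr1h3 (9.26), Rxrg (7.36) and Sox10 (9.61), and the lowest for Nr2f1 (7.48). Mcpt4 on that array compares with 5.73 to 7.85 on the other 8 tumours. Tumour 8 was the highest for Fgf10 (8.57) and the lowest for Slc1a5 (9.51). Tumour 3 was the highest for Cldn4 (10.68 against 7.84 to 8.38 on the others) and Pgr (9.30 against 6.43 to 7.49), and the lowest for Gprc5a (9.12). Tumour 4 was the lowest for Cdkn2a (8.30 against 10.03 to 11.05) and Dgat2 (7.72) and the highest for Mir199b (7.06). Tumour 2 was the highest for Gsta3 (9.60 against 6.41 to 7.0) and Timp4 (6.97) and the lowest for Igfbp3 (11.78). Tumour 1 was the lowest for Slc2a1 (11.79) and the highest for Wif1 (7.74), tumour 5 the highest for Fasn (11.87) and tumour 6 the highest for Nrg4 (7.05).

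Among normal samples, sample 1 was the lowest for Rspo1 (9.22 against 11.69 to 11.97), Stat5a (10.20) and Cdk4 (12.40). Sample 2 was the highest for Ccl2 (9.27) and Plaur (8.14) and the lowest for Irf4 (8.38), and sample 3 was the lowest for Fgf10 (10.03). Sample 4 was the highest for Wap (12.12 against 7.99 to 8.94), Tnc (8.85), Csn1s2b (6.68) and Slc6a9 (9.62), and sample 5 was the lowest for Oxtr (8.80 against 10.02 to 10.40) and Aldh1l1 (9.60).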

How the results depend on the processing

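The number of arrays, above all the 2 tumours not labelled as transplants, limits what the tests can call, and signals near background limit the size of falls. Requiring a log2 difference of at least 1 as well left 1630 calls for the 9 tumours, 1286 for the 2 other tumours, 1633 for the transplants and 976 shared changes. On the 14 arrays alone the 2 other tumours gave 4122 calls and 3565 changes were shared; the cause was not tested. Leaving out 1 of the 14 arrays compared at a time gave 4407 to 5394 calls for the 9 tumours and 3968 to 4965 for the transplants. It gave 1175 to 2706 calls for the 2 others, 1094 to 2321 shared changes and 2 to 137 direct differences. Direct differences numbered 5 with array weights, 9 with cyclic loess, 6 with the mean of probe sets, 10 on the 14 arrays, 4 with MMTV-Cre tumours only and 6 without p53 replicate 3. Cyclic loess turned the balance of calls to 2278 higher and 3152 lower, 42.0% higher in place of 51.4%. Of the 262 named genes that passed, 255 did so in each of the 23 other settings that tested them, the requirement of a difference of at least 1 set aside, and the other 7 are given above with the settings that ended the call. The sign of no named gene that passed turned (0), nor did that of any list median beyond the spread between tumours (0 of 68), while 25 of 68 medians moved by more than that spread in at least 1 setting. No paired analysis was possible because the replicate numbers used here only follow the order of the samples and pair nothing.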
